A study of Mus musculus with 90 samples.

Results

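The 9 genes Lct, Sis, Anpep, Fabp1, Fabp2, Apoa4, Mttp, Npc1l1 and Vil1 act in the digestion and absorption of food by enterocytes, the absorptive cells of the small intestine. They were taken by Entrez Gene identifier from the deposited expression table, which lists 20414 genes, and all 9 were found. The table gives FPKM (fragments per kilobase of transcript and per unit of sequencing depth), a level scaled for gene length and for the size of the library, in 90 libraries. Each of 15 tissues has 6 of them, with 3 in estrus and 3 in diestrus. All animals were normal, untreated C57BL/6 females (C57BL/6J in the study's methods), 10 weeks old per the sample labels, and the phase of each was read from a stained vaginal smear. Per the study's methods, each phase was sampled in triplicate mice, so the p-values below measure the spread between mice and between dissections together.

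Enterocytes carry a dense layer of microvilli, the brush border, on the side that faces the gut lumen. Disaccharidases and peptidases anchored in this membrane finish the breakdown of sugars and peptides, and fatty acids and cholesterol taken up through it are packed into chylomicrons, the particles that leave the cell for the lymph. In the villus epithelium these genes rise as cells leave the crypt and mature, and transcription factors of the CDX, GATA, HNF1 and HNF4 families are known to act at many of their promoters.

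The sequences just before the start sites of 3 of the genes are shown because Sis and Lct had the highest shares of their level in duodenum, while Fabp1 was more abundant in liver. Each is the 250 bases before the RefSeq start on GRCm38.p6, 5′ to 3′ on the strand of the gene. Capitals mark TTTAT (the core of a CDX site), GATAA (bound by zinc finger factors of the GATA family), GTTAAT (one arm of an HNF1 site) and CAAAGT (one arm of an HNF4 site), searched on both strands. They overlap in TTTATC, which holds the CDX core and the reverse complement of GATAA, and CDX cores overlap by their ends at positions -87 and -83 of Fabp1, counted from the start site.
Lct, chr1:128328319-128328568, minus strand: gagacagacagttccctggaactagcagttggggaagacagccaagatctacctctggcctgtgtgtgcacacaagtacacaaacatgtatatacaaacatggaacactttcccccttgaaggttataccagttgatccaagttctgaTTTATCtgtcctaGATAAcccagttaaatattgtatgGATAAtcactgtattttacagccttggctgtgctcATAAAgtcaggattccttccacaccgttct
Sis, chr3:72967864-72968113, minus strand: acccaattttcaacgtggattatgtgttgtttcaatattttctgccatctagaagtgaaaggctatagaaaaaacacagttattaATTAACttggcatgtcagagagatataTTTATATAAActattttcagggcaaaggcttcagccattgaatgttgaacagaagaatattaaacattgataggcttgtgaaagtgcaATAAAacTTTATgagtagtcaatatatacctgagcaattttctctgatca
Fabp1, chr6:71199629-71199878, plus strand: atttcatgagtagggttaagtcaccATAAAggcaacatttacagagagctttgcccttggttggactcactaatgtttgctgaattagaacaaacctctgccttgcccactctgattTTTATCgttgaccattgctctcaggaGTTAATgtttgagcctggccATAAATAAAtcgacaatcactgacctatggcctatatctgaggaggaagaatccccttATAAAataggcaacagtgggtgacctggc

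The Lct window held 2 CDX cores and 3 GATA sites, the Sis window 4 CDX cores and 1 HNF1 arm, and the Fabp1 window 5 CDX cores, 1 GATA site and 1 HNF1 arm. These are matches of letters alone, and binding was not tested. The match counted as a CDX core at -29 of Fabp1 lies within TATAAAA, the letters of a TATA box. Over the 9 genes, the CDX core was found in the windows of 5, the GATA site in 2, the HNF1 arm in 3 (Sis, Fabp1 and Npc1l1) and the HNF4 arm in 2 (Fabp2 and Apoa4). Among 32851 RefSeq windows of the same length, the same letters stood in 37.3%, 22.6%, 6.43% and 12.6%. The windows of Vil1, Anpep and Mttp held none of the 4 motifs, which says only that these letters are not within 250 bases of the start.

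Depth was estimated from the spacing of low FPKM values, since the table holds no counts. It came to about between 9.17M and 17.9M reads in 89 libraries and to 0.0776M in the library of BAT estrus replicate 3, where a listed 0 says little. The study states a higher number of reads generated per sample, so these values are rough. In duodenum, 1 library stood apart from the other 5. Estrus replicate 1 held 29618 FPKM of Tff1, 15012 FPKM of Gkn2 and 7108 FPKM of Gkn1, secreted products of the gastric surface, and 16401 FPKM of Tff2 and 1142 FPKM of Muc6, products of gastric neck cells and of Brunner glands. The gastric list of 9 genes summed to 52478 FPKM there and to between 0.94 and 27.1 FPKM in the other 5 duodenum libraries. Together with Tff2 and Muc6 it took 12.3% of all FPKM in that library. In the same library and list, Atp4a and Atp4b, genes of acid-secreting cells, were at 0.13 and 0.17 FPKM, and Cblif was at 0.92 FPKM. The values of Pgc and Lipf, also in that list, are not given here, so a lack of chief cell transcripts cannot be read from these genes. Of the 9 listed genes, 8 were highest in this library. All 7 smooth muscle markers were also highest in this library, with a sum of 3038 FPKM against 306 to 804 FPKM. The phase differences in duodenum, the shares of the tissues and the counts of tissue differences are therefore given with this library and without it.

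The tissue of origin was checked against markers of the gut. The 8 simple epithelium markers, led by Krt19, Krt8 and Lgals4, summed to between 4181 and 6733 FPKM in the 6 duodenum libraries. The sum was highest in estrus replicate 1, where 4 of the markers were highest and 3 lowest of the 6 libraries. Among markers of the ileum, the distal end of the small intestine, Slc10a2, the bile acid uptake carrier, lay between 0.80 and 1.92 FPKM and Fabp6, the ileal bile acid binding protein, between 0 and 0.77 FPKM, while the exporter subunits Slc51a and Slc51b had means of 139 and 127 FPKM.

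Duodenum was the tissue with the highest level of 8 of the 9 genes, and of these 8 Anpep was the one whose range met that of the next tissue. The brush border disaccharidases were the most restricted. Sis, which splits sucrose and starch fragments, had a mean of 216 ± 106 FPKM (SD, n = 6) in duodenum and stayed below 1 FPKM in the mean of every other tissue, so that 99.8% of the sum of its 15 tissue means lay in duodenum. Lct, which splits milk sugar, had 159 ± 98.2 FPKM (SD, n = 6) in duodenum, or 98.8% of its sum. Its next tissue was cerebrum, with a mean of 1.06 FPKM that rested on 1 library at 3.54 FPKM.

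Genes of lipid handling followed. Fabp2, the intestinal fatty acid binding protein, had 98.5% of its summed level in duodenum, Npc1l1, the cholesterol uptake protein that ezetimibe blocks, 96.3%, and Apoa4, an apolipoprotein of chylomicrons, 92.9%. Mttp, which loads lipid onto apolipoprotein B, had 86.9%, with 73.6 ± 5.74 FPKM (SD, n = 6) in liver as its next level. Fabp1, the fatty acid binding protein shared by liver and intestine, was the exception, with 36.3% in duodenum. Its mean was 5461 FPKM in liver against 3130 FPKM in duodenum, and the ranges of 4884 to 6477 and 1325 to 4168 FPKM did not meet.

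Vil1, the actin-bundling protein of the microvillus core, had 662 ± 223 FPKM (SD, n = 6) in duodenum, followed by kidney at 43.4 to 50.8 FPKM and stomach at 17.3 to 42.0 FPKM, ranges that did not meet either. Anpep, aminopeptidase N, had 2289 ± 994 FPKM (SD, n = 6) in duodenum and was the least restricted of the genes led by duodenum, with 69.2% of its sum. In uterus its levels were 646, 808 and 225 FPKM in estrus and 913, 958 and 675 FPKM in diestrus, so that the uterus libraries reached 958 FPKM where the lowest duodenum library, estrus replicate 1, had 841 FPKM. Without that library the duodenum range began at 1681 FPKM and no longer met that of uterus. In ovary, Apoa4 lay between 38.2 and 91.4 FPKM, a range that met that of liver at 86.3 to 211 FPKM. Without duodenum estrus replicate 1, the shares in duodenum were 99.8% for Sis, 98.9% for Lct, 98.7% for Fabp2, 96.8% for Npc1l1, 93.7% for Apoa4, 89.8% for Vil1, 88.0% for Mttp, 71.6% for Anpep and 38.9% for Fabp1.

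**Figure D1:**
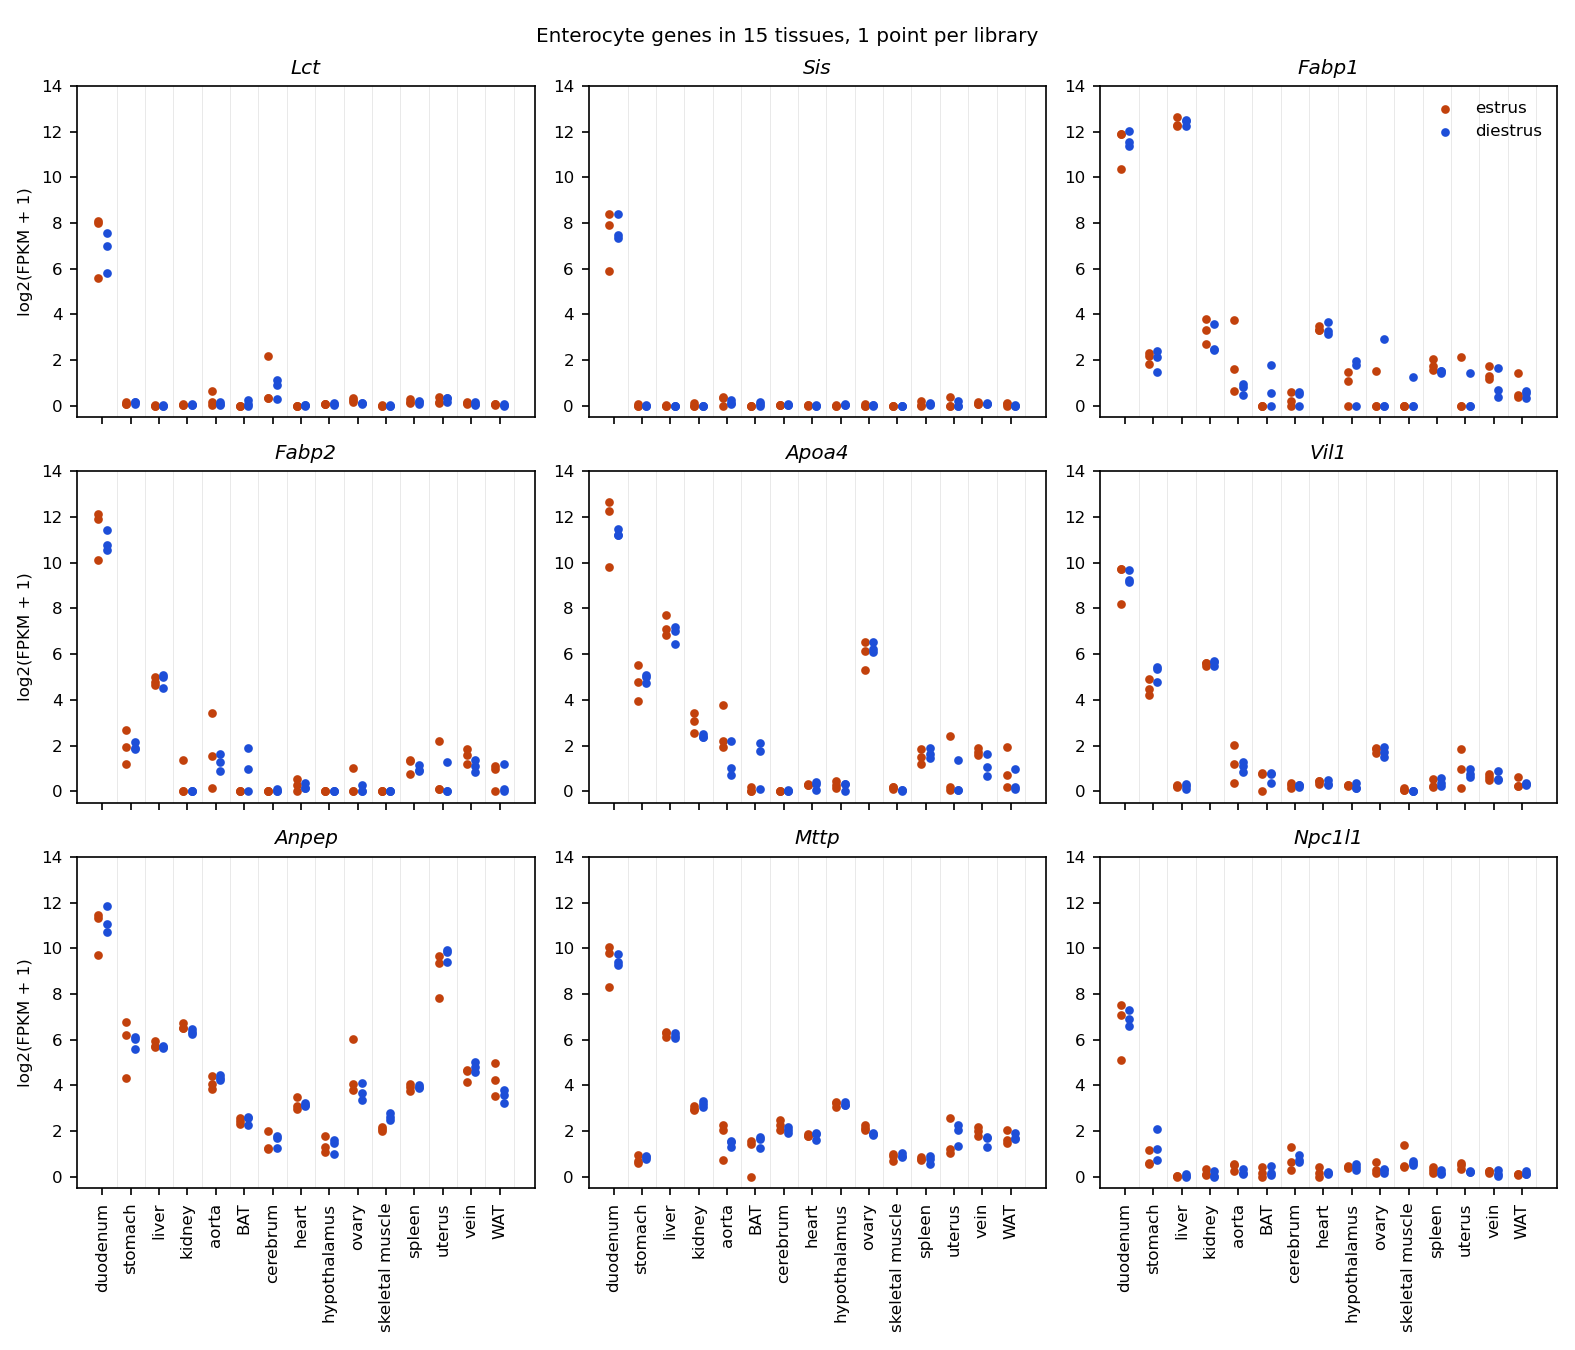
Level of the 9 enterocyte genes as log2(FPKM + 1) on the vertical axis in 15 tissues on the horizontal axis, 1 point per library, with estrus in red-brown and diestrus in blue. Sis stands near 0 outside duodenum, as does Lct apart from cerebrum, Fabp1 is higher in liver than in duodenum, and Anpep in uterus reaches the level of the lowest duodenum library.

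Below 1% of the duodenum mean, some libraries of other tissues listed several of the genes together. In aorta estrus replicate 2, Lct stood at 0.365%, Fabp1 at 0.401%, Fabp2 at 0.378%, Apoa4 at 0.379% and Vil1 at 0.464% of their duodenum means, and Sis at 0.143%. In uterus estrus replicate 3, Fabp2 was listed at 3.53 FPKM and Apoa4 at 4.41 FPKM, against at most 1.44 and 1.55 FPKM in the other 5 uterus libraries. In kidney, Fabp2 was listed at 1.54 FPKM in estrus replicate 3 and at 0 in the other 5 libraries. What these traces come from was not tested.

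The duodenum was then compared with stomach, liver and kidney, 3 other organs of the rule, over 6 libraries each. The test was limma on log2(FPKM + 1) with phase as a term, and a gene was called where its log2 fold change reached 1 in size and its p, adjusted by Benjamini-Hochberg over all genes tested, was 0.05 or less. Against stomach, all 9 genes were called higher in duodenum, where 12.1% of the 12990 genes tested were and 24.1% were called in either direction. Against kidney, all 9 were called higher, with a background of 16.9%, or 37.6% in either direction. Against liver, 8 of 9 were called higher, with a background of 35.1%, or 46.1% in either direction. The median log2 fold change of the 9 genes was 6.90, 6.98 and 6.31 against stomach, kidney and liver, where the medians of all genes tested were -0.06, -0.11 and 0.65.

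On the log2(FPKM + 1) scale, the pseudocount caps the difference of a gene near 0 in the other organ at its level in duodenum, as for Sis and Lct, so the order of the values is that of this scale only. Against stomach, the smallest difference was that of Vil1, with a log2 fold change of 4.43 (SE 0.28, adjusted p = 1.63e-07), and the largest that of Fabp1, with 9.47 (SE 0.27, adjusted p = 3.79e-10). In stomach itself, Anpep, Apoa4 and Vil1 were the 3 most abundant of the 9 genes. Anpep had 72.9, 109 and 19.0 FPKM in estrus and 47.3, 64.4 and 68.4 FPKM in diestrus. Apoa4 had 26.6, 45.5 and 14.7 FPKM in estrus and 30.6, 25.4 and 32.8 FPKM in diestrus. Vil1 had 20.9, 17.3 and 28.7 FPKM in estrus and 42.0, 26.8 and 39.8 FPKM in diestrus. The stomach libraries also differed in pancreas: the pancreatic acini list summed to 30176, 54627 and 4886 FPKM in estrus and to 27053, 30239 and 19764 FPKM in diestrus, and its lowest and highest libraries were those with the lowest and highest Anpep and Apoa4. The gastric epithelium list had the same lowest and highest stomach libraries, with sums of 59617 and 161025 FPKM. The part of the pancreas or of the gastric epithelium in these values was not tested.

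Against liver, Vil1 showed the largest difference, with a log2 fold change of 9.06 (SE 0.23, adjusted p = 3.13e-12), and liver held between 0.08 and 0.23 FPKM of it. Mttp differed least among the called genes, with 3.22 (SE 0.24, adjusted p = 9.05e-08). Fabp1 was lower in duodenum by limma with an adjusted p of 0.00626, but its log2 fold change of -0.89 (SE 0.25) did not reach the limit of 1. It was -0.65 (SE 0.14) without duodenum estrus replicate 1 and reached -1.54, past both limits, when each library was centred on its median. Against kidney, Fabp2 differed most, with 10.93 (SE 0.34, adjusted p = 1.7e-11), and Vil1 least, with 3.69 (SE 0.23, adjusted p = 1.76e-08). Without duodenum estrus replicate 1, the counts of called genes were 9, 8 and 9 against stomach, liver and kidney. The log2 fold changes were then 4.63 for Vil1 and 9.72 for Fabp1 against stomach, 9.30 for Vil1 and 3.46 for Mttp against liver, and 11.21 for Fabp2 and 3.93 for Vil1 against kidney.

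The lists around the 9 genes were set beside them. Over all genes tested, 12%, 11% and 20.7% were called lower in duodenum than in stomach, liver and kidney. Of 16 other brush border hydrolases, led in duodenum by Alpi, Akp3 (intestinal alkaline phosphatases) and Mep1b (a meprin subunit), 16 were called higher than in stomach, 16 than in liver and 13 than in kidney. Those called lower than in kidney were Mep1a, another meprin subunit, by 5.12 on the log2 scale, and Slc3a1, by 2.34. Slc3a1 is a subunit of the cystine carrier and not a hydrolase, though it was counted in this list here and below. Ggt1, which cleaves glutathione, was not called, with a log2 fold change of -0.21. Of 15 absorptive transporters, led by Slc5a1 (sodium glucose uptake), Slc46a1 (folate uptake) and Slc6a19 (neutral amino acid uptake), 14 were called higher than in stomach, 13 than in liver and 6 than in kidney. The vitamin C carrier Slc23a1 was called lower than in liver and kidney and the glutamate carrier Slc1a1 lower than in kidney, with log2 fold changes of -2.09, -4.31 and -3.49.

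Of 21 genes of lipid uptake and chylomicron assembly, led by Apoa1, Rbp2 (retinol binding in enterocytes) and Apoc2, 17 were called higher than in stomach and 18 than in kidney. Against liver, which also makes lipoproteins, 9 were called higher and 5 lower, with a list median of 0.55 beside 0.65 for all genes. Those lower than in liver were Apoc3, Abca1, Scarb1, Dgat2 and Apob, the backbone protein of the particles, with log2 fold changes between -2.43 and -1.02. Cd36, a fatty acid receptor, was called lower than in kidney, with -2.12. Of 16 genes of microvillus structure, led by Cdhr5, Slc9a3r1 and Cdh17, 14, 15 and 13 were called higher than in stomach, liver and kidney, and Pdzk1, a scaffold of membrane carriers, was called lower than in kidney, with -3.20.

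Of 14 intestinal transcription factors, led by Hnf4a, Hnf4g and Isx, 7 were called higher than in stomach, 9 than in liver and 9 than in kidney, and 2 were called lower than in liver and 3 than in kidney. Cdx1 and Cdx2, the homeobox factors of the intestine, reached 83.8 and 82.9 FPKM in their highest single libraries of duodenum. Their means were at most 0.19 and 0.07 FPKM in stomach, liver and kidney. Hnf4a, in contrast, had means of 164 FPKM in duodenum, 179 FPKM in liver and 200.2 FPKM in kidney, and was called neither against liver nor against kidney, with log2 fold changes of -0.19 and -0.36. Nr1h4 and Ppara, nuclear receptors of bile acids and fatty acids, were called lower than in liver and kidney, with log2 fold changes between -2.23 and -1.31.

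Estrus and diestrus, the contrast of the study, were then compared within the duodenum. None of the 9 genes was called between estrus and diestrus, and none of the 12410 genes tested was (0%), whereas 1677 genes (13.5%) had an unadjusted p under 0.05 by limma. The study, which tested counts with DEGSeq at the same limits, placed duodenum and stomach among the tissues with far more called genes than the rest. Its test was not run here, so the absence of calls holds for limma on FPKM only. The log2 fold changes of the 9 genes lay between -0.38 and 0.47, with a median of -0.13 beside -0.16 for all genes tested, standard errors of 0.46 to 0.76 and adjusted p-values of 0.722 to 0.932. The phases overlapped for all 9 genes, while 26.6% of the genes tested showed no overlap. An exact permutation test of 3 against 3 libraries cannot fall below p = 0.1.

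The values by library show where the spread came from. Sis had 58.7, 237 and 332 FPKM in estrus and 161, 178 and 332 FPKM in diestrus. Lct had 47.8, 258 and 274 FPKM in estrus and 127, 55.3 and 191 FPKM in diestrus. Anpep had 841, 2525 and 2829 FPKM in estrus and 2119, 1681 and 3738 FPKM in diestrus. For the hydrolases, estrus replicate 1 was thus lowest, and diestrus replicate 2 was nearly as low for Lct but not for Sis or Anpep.

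Among the lipid genes, Apoa4 had 912, 4999 and 6408 FPKM in estrus and 2358, 2387 and 2833 FPKM in diestrus. Fabp2 had 1107, 4570 and 3830 FPKM in estrus and 1499, 1732 and 2795 FPKM in diestrus. Both had their 2 highest libraries and their lowest one in estrus. Fabp1 had 1325, 3813 and 3863 FPKM in estrus and 2952, 2660 and 4168 FPKM in diestrus. Mttp had 319, 1048 and 892 FPKM in estrus and 622, 683 and 864 FPKM in diestrus. Npc1l1 had 33.3, 136 and 180 FPKM in estrus and 120, 96.3 and 157 FPKM in diestrus, with estrus replicate 1 at 0.346 times the lowest of the others, the deepest shortfall of the 9 genes. Vil1 had 288, 847 and 858 FPKM in estrus and 568, 599 and 814 FPKM in diestrus, the narrowest spread of the 9, with a highest library 2.98 times its lowest against 7.02 times for Apoa4.

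**Figure D2:**
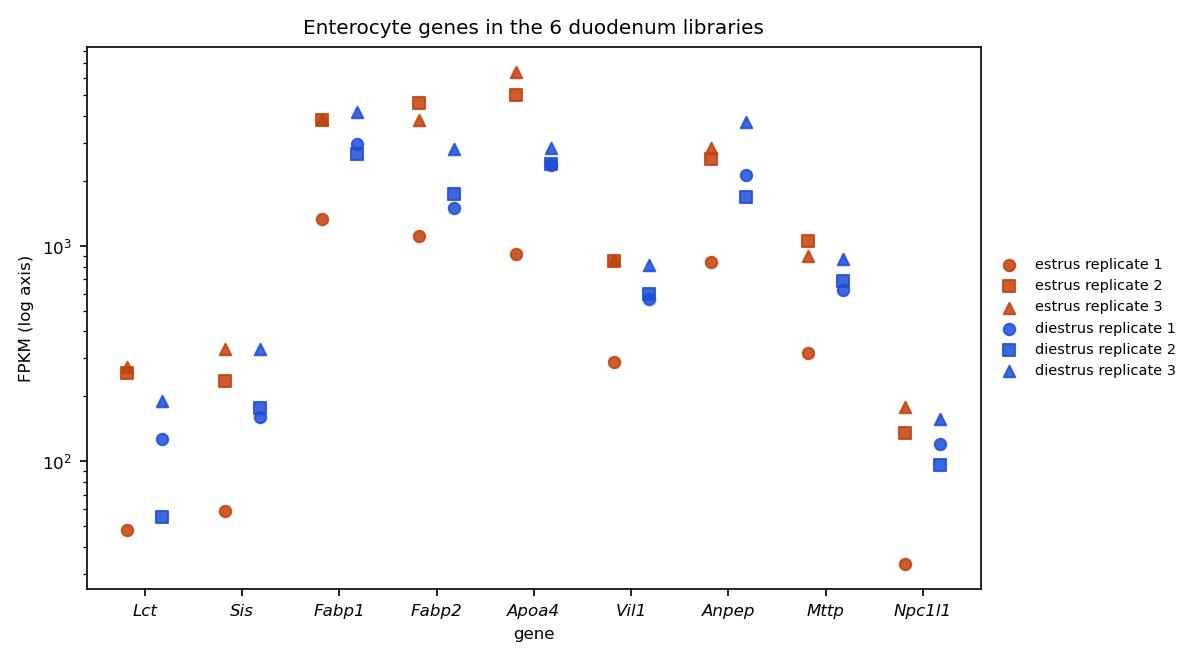
FPKM on a log axis of the 9 enterocyte genes in the 6 duodenum libraries, with estrus in red-brown, diestrus in blue and the replicate number as the shape of the point. Estrus replicate 1 is the lowest library for each gene, and estrus replicates 2 and 3 lie above the diestrus libraries for Lct, Fabp2, Apoa4, Vil1 and Mttp.

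Estrus replicate 1 was the lowest of the 6 libraries for all 9 genes, where it was lowest for 20.5% of the genes tested. The 9 genes summed to 4932 FPKM, or 0.864% of all FPKM, in that library and to between 1.86% and 3.81% in the other 5. The larger lists stood alike: 13 of 16 brush border hydrolases, 11 of 15 absorptive transporters, 16 of 21 lipid genes, 13 of 16 microvillus genes and 11 of 14 intestinal transcription factors were lowest in it. Beside these values stand the gastric, Brunner and smooth muscle markers given above for the same library, and their part in the result was not tested. In bulk tissue, fewer enterocytes and less RNA of these genes per enterocyte cannot be told apart.

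**Figure D3:**
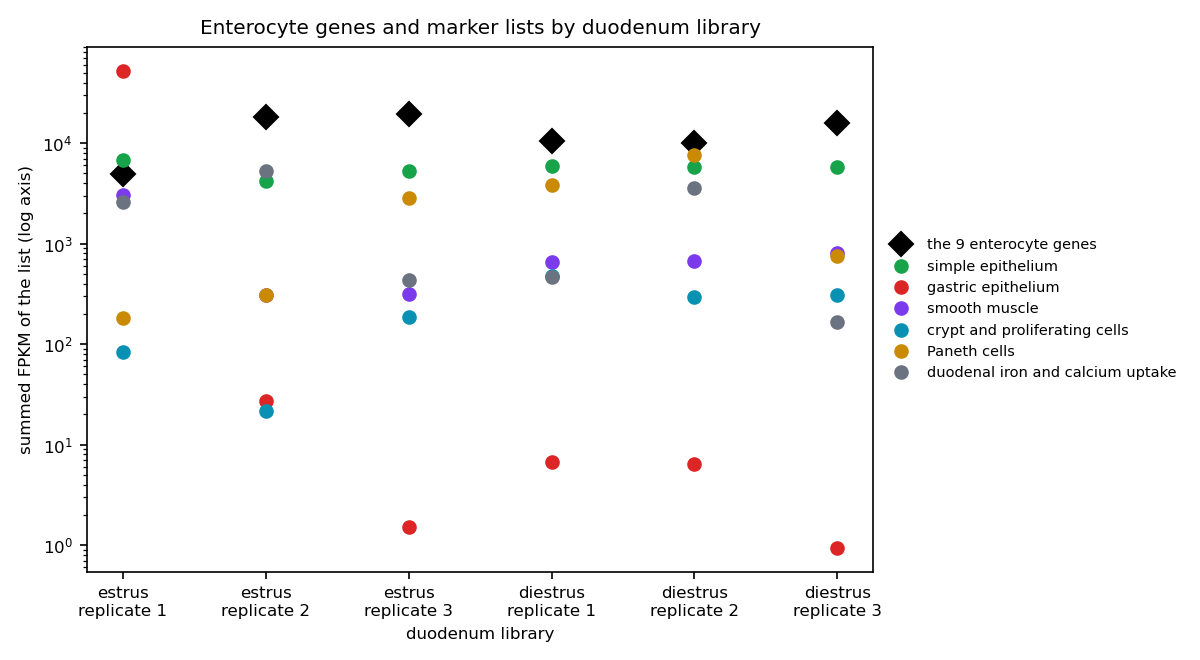
Summed FPKM on a log axis of the 9 enterocyte genes (black diamonds) and of 6 marker lists (coloured points) in each duodenum library. The gastric list stands at 52478 FPKM in estrus replicate 1 and at most at 27.1 FPKM in the others, and the 9 genes have their lowest sum there.

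Without estrus replicate 1, the log2 fold changes of all 9 genes were positive, that is higher in estrus, with a median of 0.40 beside -0.26 for all genes tested. None of the 9 was called by limma, where 10 of 12071 genes were (0.0828%), and 3 of the 9 had an unadjusted p under 0.05, as 34.3% of the genes tested had. For 5 of them, Lct, Fabp2, Apoa4, Vil1 and Mttp, both remaining estrus libraries lay above the 3 diestrus libraries, which held for 10.3% of the genes tested. Lct had a log2 fold change of 1.26 (SE 0.48, adjusted p = 0.132), Apoa4 one of 1.17 (SE 0.25, adjusted p = 0.123) and Fabp2 one of 1.11 (SE 0.33, adjusted p = 0.123) in this limma fit of 5 libraries. Anpep differed least, with 0.17 (SE 0.37, adjusted p = 0.750). The sign therefore turned for Sis, Fabp1, Vil1, Anpep, Mttp and Npc1l1 with this 1 library, and no direction between the phases can be given for them. Nor can it for Lct and Apoa4, which turned to -0.047 without diestrus replicate 2 and to -0.058 and -0.24 without estrus replicates 2 and 3. Fabp2 kept a positive value with any 1 duodenum library left out and was not called.

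**Figure D4:**
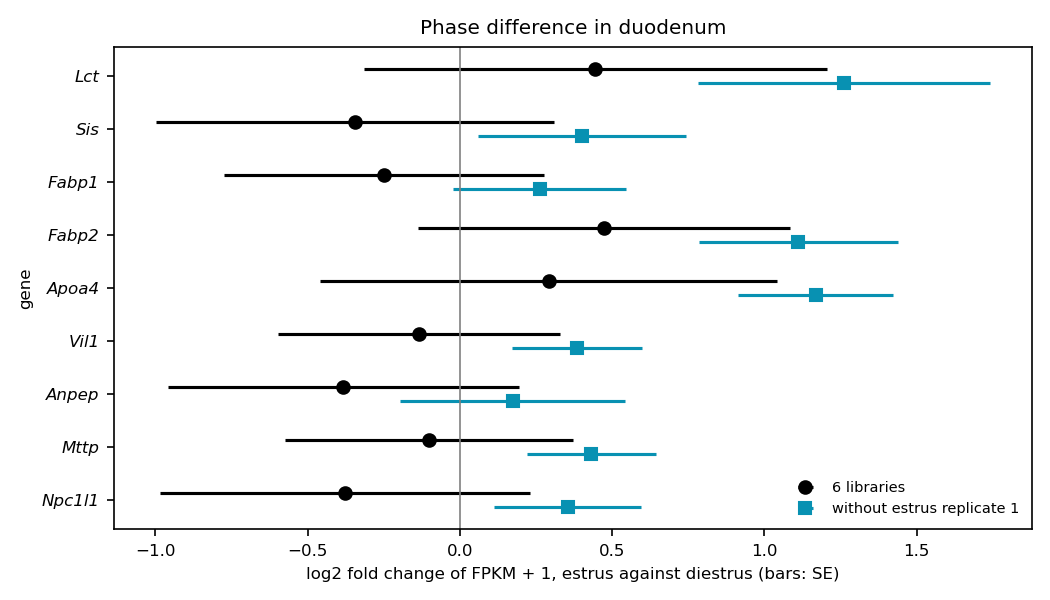
Log2 fold change of FPKM + 1 between estrus and diestrus on the horizontal axis for each of the 9 genes in duodenum, with all 6 libraries (black circles) and without estrus replicate 1 (teal squares), bars giving the standard error from limma. With all libraries the values lie between -0.38 and 0.47, and without that library they lie between 0.17 and 1.26.

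The absorptive lists were read from the same fits. With all libraries, 10 of 16 brush border hydrolases and 14 of 21 lipid genes had positive log2 fold changes, with list medians of 0.16 and 0.12. Without estrus replicate 1, these were 16 of 16 and 21 of 21, with medians of 0.97 and 0.61. For microvillus structure the counts were 11 of 16 and 15 of 16, with medians of 0.11 and 0.57, and for absorptive transporters 7 of 15 and 12 of 15, with medians of -0.01 and 0.74. None of the genes of these 4 lists was called in either fit. Of the transcription factors, 1 of 14 was positive with all libraries and 3 of 14 without estrus replicate 1, with medians of -0.45 and -0.31 beside -0.16 and -0.26 for all genes tested. Cdx2, for instance, had 21.1, 43.8 and 55.2 FPKM in estrus and 82.9, 57.8 and 73.6 FPKM in diestrus.

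Enterocytes arise from the crypt. The crypt and proliferation list, led by Olfm4, Top2a and Smoc2, summed to 84.1, 21.7 and 188 FPKM in estrus and to 482, 291 and 311 FPKM in diestrus. Its 8 genes had negative log2 fold changes in both fits, with medians of -1.36 and -1.54, and none was called. Without estrus replicate 1, 7 of the 8 lay lower in both estrus libraries than in each diestrus library, as 47.3% of the genes tested did, while Lgr5, a stem cell marker, overlapped. Olfm4, a gene of crypt base cells, had 22.1, 4.28 and 112 FPKM in estrus and 339, 175 and 209 FPKM in diestrus. The 7 Paneth cell markers, led by Defa17, Lyz1 and Defa24, were negative too, with medians of -2.29 and -1.60, but their sum ranged from 761 to 7641 FPKM among the diestrus libraries alone. The goblet list, led by Zg16, Tff3 and Agr2, had medians of -0.53 and -0.40, and the 7 leukocyte markers, led by Jchain, Cd79a and Ptprc, of 0.35 and 0.33. Without estrus replicate 1, 4 leukocyte genes were positive and 3 negative. The B cell marker Ms4a1 was called higher in estrus in that fit, as 0.0828% of the genes tested were, with a log2 fold change of 2.70 (SE 0.24, limma adjusted p = 0.0472). Smooth muscle markers had sums of 306 and 315 FPKM in estrus replicates 2 and 3 and of 660 to 804 FPKM in diestrus. Estrus replicate 2 also stood apart in another way, since it was the lowest library for 51.1% of the genes tested and for none of the 9. The part of crypt, muscle and immune cells in the levels of the enterocyte genes was not tested.

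To separate the genes from each other, each was taken relative to Vil1 in the same library. Mttp kept between 104% and 124% of the Vil1 level in the 6 libraries, and Fabp1 between 444% and 519%, so that these varied by 1.19 and 1.17 times while the FPKM varied by 3.29 and 3.15 times. This included estrus replicate 1, where Mttp had 111% and Fabp1 460% of Vil1. Lct, in contrast, ranged from 9.22% in diestrus replicate 2 to 32.0% in estrus replicate 3, a span of 3.47 times. Apoa4 had 317%, 590% and 747% in estrus and 415%, 398% and 348% in diestrus. Fabp2 had 384%, 540% and 447% in estrus and 264%, 289% and 343% in diestrus, and was the 1 gene whose phases did not overlap on this scale, where 1.75% of the genes tested lay higher in estrus without overlap. Its log2 fold change relative to Vil1 was 0.61 (SE 0.51, limma adjusted p = 1), so that it was not called. None of the 9 was called, where 0.201% of the genes tested were. On this scale limma also gave Vil1 itself, which has no spread there, an SE of 0.51. The SE of Fabp2 is thus a value shared over genes and does not measure the spread of its own ratio. This scale was chosen after the values had been seen.

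**Figure D5:**
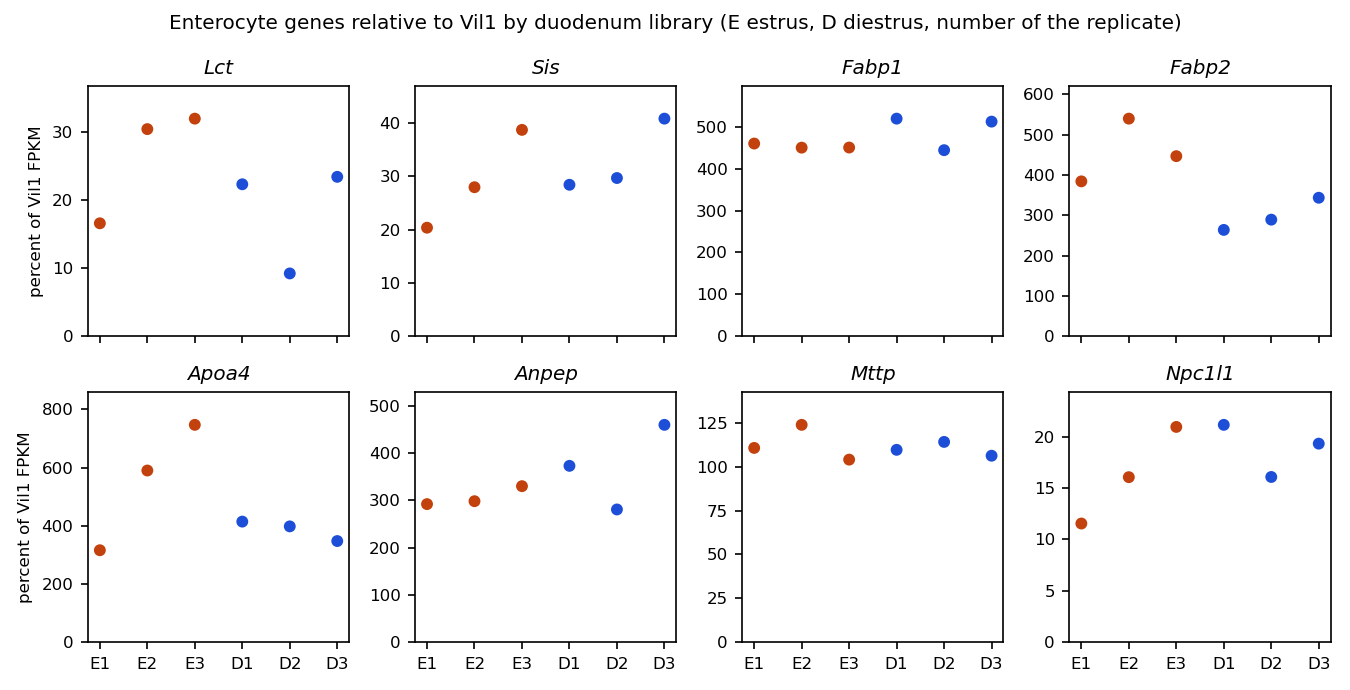
Level of 8 genes as a percent of the Vil1 FPKM in the same duodenum library, with estrus (E) in red-brown and diestrus (D) in blue and each vertical axis starting at 0. Mttp and Fabp1 stay within 1.19 and 1.17 times over the 6 libraries, whereas Lct spans 3.47 times and Fabp2 is higher in each estrus library than in each diestrus library.

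Genes of iron and calcium uptake, which are strongest at the upper end of the duodenum, divided the 6 libraries differently. S100g, a calcium binding protein, had 2296, 4509 and 319 FPKM in estrus and 355, 3231 and 103 FPKM in diestrus, and Slc40a1, the iron exporter, 89.5, 336 and 35.8 FPKM in estrus and 48.7, 179 and 15.2 FPKM in diestrus. Slc11a2, the iron uptake carrier, was the third most abundant gene of that list, with 63.7, 253 and 37.2 FPKM in estrus and 26.0, 63.9 and 24.5 FPKM in diestrus. Estrus replicates 1 and 2 and diestrus replicate 2 were the 3 highest libraries for S100g and Slc40a1, with both phases among them. The 3 libraries highest in the summed level of the 9 genes were estrus replicates 2 and 3 and diestrus replicate 3. Akp3, an alkaline phosphatase, also had its highest libraries in estrus replicate 2 and diestrus replicate 2, with 800, 4709 and 1729 FPKM in estrus and 425, 2771 and 171 FPKM in diestrus. Whether the libraries came from different stretches of the duodenum was not tested.

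In stomach, 6 of the 9 genes reached the mean of 1 FPKM needed for the test, in liver 5 and in kidney 5, and none was called between the phases, as none of the 12670, 10666 and 12424 genes tested was (0% in each, with 7.38%, 5.6% and 2.87% at an unadjusted p under 0.05 by limma). In stomach, Vil1 had the lowest unadjusted p of the 6, with a log2 fold change of -0.68 (SE 0.25, limma adjusted p = 0.671), and its phases overlapped. In liver, Fabp1 had 6477, 4942 and 4892 FPKM in estrus and 5713, 4884 and 5857 FPKM in diestrus, with a log2 fold change of -0.02 (SE 0.14, limma adjusted p = 0.988). Apoa4 in liver had 112, 134 and 211 FPKM in estrus and 86.3, 129 and 147 FPKM in diestrus, with overlap. Mttp in liver lay between 67.2 and 80.0 FPKM over all 6 libraries.

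In kidney, the 2 genes Apoa4 and Anpep lay higher in each estrus library than in each diestrus library, against a background of 4.25% of the genes tested. Apoa4 had 7.47, 4.79 and 9.88 FPKM in estrus and 4.63, 4.20 and 4.12 FPKM in diestrus, with a log2 fold change of 0.61 (SE 0.22, limma adjusted p = 1.00). Anpep had 89.4, 90.7 and 103.9 FPKM in estrus and 79.7, 87.5 and 73.8 FPKM in diestrus, with 0.23 (SE 0.10, limma adjusted p = 1.00). Neither was called. Vil1 in kidney lay between 43.4 and 50.8 FPKM in both phases.

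The difference between the phases in duodenum was itself compared with that in stomach, liver and kidney by an interaction term. Per the study, the tissues of a phase were dissected from the same 3 mice, whereas this fit took the libraries as independent. None of the 9 genes was called in any of the 3 tests, with limma adjusted p-values of 0.664 to 0.995 against stomach, 0.731 to 0.992 against liver and 0.679 to 0.994 against kidney. Over all genes, 1 of 12990 was called against stomach (0.0077%) and none against liver and kidney (0%), while 11.2%, 12.9% and 12% had an unadjusted p under 0.05. In the other 11 tissues, 37 pairs of gene and tissue could be tested and none was called, where at most 0.00936% of the genes of a tissue were (skeletal muscle, and 0.00798% in spleen). An unadjusted p under 0.05 was found for Anpep in skeletal muscle and Apoa4 in vein, as for 20.8% and 12.1% of the genes tested there. The lowest adjusted p was 0.0938 by limma, for Anpep in skeletal muscle, with 3.55, 3.05 and 3.25 FPKM in estrus and 5.03, 4.56 and 5.88 FPKM in diestrus and a log2 fold change of -0.52 (SE 0.10). These phases did not overlap there, as 21.9% of the genes tested in that tissue lay lower in estrus without overlap. Mttp in ovary and vein and Fabp1 in spleen lay higher in each estrus library than in each diestrus library, as 8.13%, 5.28% and 3.09% of the genes tested there did, with log2 fold changes of 0.29 (SE 0.13), 0.40 (SE 0.18) and 0.31 (SE 0.14) and no call. Without BAT estrus replicate 3, the library of low depth, 3 genes could be tested in BAT and none was called.

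The genes most like each of the 9 over the 90 libraries were listed by Pearson correlation of log2(FPKM + 1). They were sought among 17290 genes with a mean of 1 FPKM or more in some tissue, the 9 themselves left out as matches. The correlations are a description and rest largely on differences between tissues, with duodenum high for all 9 and liver higher still for Fabp1. For Sis the nearest genes were Clca4b (0.998), Tmem236 (0.998) and Gip (0.996), the last an incretin hormone of the upper intestine. Tmem236 was also the nearest to Lct (0.984) and the second for Npc1l1 (0.980), after Trim31 (0.981). The nearest to Fabp1 were Cyp3a11 (0.968), Nr1i3 (0.963) and Ugt2a3 (0.963), genes of drug metabolism with high levels in liver. Mttp stood closest to Cyp4f14 (0.961), Fabp2 to Gimd1 (0.957), Vil1 to Glod5 (0.966), Apoa4 to Soat2 (0.900), which esterifies cholesterol, and Anpep to Enpp3 (0.931). Among the 9 genes themselves, the correlation was 0.984 between Sis and Lct and 0.976 between Sis and Npc1l1, and 0.492 between Vil1 and Fabp1, the lowest pair.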

How the data were processed

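RNA of 90 libraries was sequenced on the BGISEQ-500. After cleaning by SOAPnuke, the authors used Bowtie2 2.2.5 on GRCm38.p5 and RSEM 1.2.8, and deposited FPKM values for 20414 genes. That the values are FPKM was read from the table and from the study's tools. RefSeq (GRCm38.p6) named 20265 of the identifiers, and promoter windows came from the same source. Reads per library were approximated from steps between low values of 923 short genes. Between 52.2% and 72.3% of the low values of a library were whole to within 0.2 reads, so counts were not recovered and the study's count test was not run.

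Tests were run on log2(FPKM + 1), pseudocount 1, by limma 3.58.1 (R 4.3.3, trended prior variance, no replicate block), after leaving out genes whose mean over the fitted libraries was below 1 FPKM. Adjustment was by Benjamini-Hochberg over all genes tested, and the limits of a call (log2 fold change of at least 1, adjusted p of at most 0.05) were those of the study. The procedure was tested on simulated data. Other steps used Python 3.11.15, pandas 2.3.3 and matplotlib 3.10.9. Tissue, phase and replicate number came from the sample labels, which give an age of 10 weeks, other than the age in the study's methods. No group of 3 libraries was searched for outliers by a formal test.

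The 9 genes and the gene lists were chosen with earlier results of these data known. Named beside the 9 are the 3 most abundant genes of a list in duodenum, listed genes that were called (1 is not reported here), and the genes nearest to each of the 9. Other genes given with values (Brunner gland, ileal, gastric and Cdx genes among them) were chosen after their values were seen. Alternatives covered the pseudocount, the filter, the trend, the scale, the limits, a replicate block, one fit of all libraries and each library left out.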

Additional observations from a re-analysis of the deposited data

How the results depend on the processing

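Of 1398 alternative phase, tissue and interaction differences of the 9 genes, 1308 kept their direction and their side of the limits. None of 372 alternative phase differences of the 9 genes passed the limits and 38 changed sign, while 538 of 540 alternative tissue differences kept both. The exceptions were both for Fabp1 against liver. It was at -1.54, past both limits, with libraries centred on their median. With no limit on the fold it was called at an unchanged -0.89, by its adjusted p alone. Without a limit on the fold, 6438, 9891 and 9139 genes were called against stomach, liver and kidney, since fewer conditions apply. One fit of all libraries, which shares the spread over the 15 tissues, called 490 genes between phases in duodenum, 252 in stomach, 5 in liver and 2 in kidney, and none of the 9 genes. Relative to Vil1, a scale added after the data were seen, 25 genes were called in duodenum and none of the 9.

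In duodenum, the phase difference was 0.028 for Vil1 and 0.061 for Mttp with median centring, -0.16 for Apoa4, 0.0078 for Vil1 and 0.011 for Mttp with quantile normalization, 0.11 for Vil1 and 0.14 for Mttp relative to epithelium markers, and 0.034 for Mttp relative to Vil1, all of the other sign. In liver, Fabp1 turned to 0.0056 with median centring. In stomach, Fabp2, Apoa4 and Anpep turned to 0.30, 0.17 and 0.19 relative to epithelium markers. For the phase difference in duodenum against that in stomach, Mttp turned to 0.10 with pseudocount 0.1, 0.17 with median centring and 0.096 with quantile normalization. Against liver, Apoa4 turned to 0.13 with median centring and Vil1 to 0.027 with quantile normalization. Against kidney, Fabp2 turned to -0.87 with pseudocount 0.1 and -0.27 with quantile normalization, and Vil1 to 0.025 and 0.057 with median centring and quantile normalization. The cause was not tested for any of these.

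Leaving out 1 library at a time, the genes called between phases ranged from 0 to 10 in duodenum, with 10 without estrus replicate 1 and 1 without estrus replicate 3 or diestrus replicate 3, from 0 to 1 in liver, with 1 without estrus replicate 2, and from 0 to 1 in stomach, with 1 without estrus or diestrus replicate 3. The phase differences of the 9 genes in duodenum that changed sign ranged from -0.047 to 1.26 for Lct, -0.84 to 0.40 for Sis, -0.51 to 0.26 for Fabp1, -0.24 to 1.17 for Apoa4, -0.40 to 0.39 for Vil1, -0.70 to 0.17 for Anpep, -0.42 to 0.43 for Mttp and -0.84 to 0.35 for Npc1l1. The libraries that turned them were estrus replicate 1 for Sis, Fabp1, Vil1, Anpep, Mttp and Npc1l1, estrus replicates 2 and 3 for Apoa4, diestrus replicate 2 for Lct, and diestrus replicate 3 for Vil1 and Mttp. Those in other tissues ranged from -0.094 to 0.017 for Vil1 in kidney, from -0.15 to 0.049 for Fabp1 and -0.24 to 0.059 for Fabp2 in liver and from -0.16 to 0.29 for Fabp1, -0.40 to 0.34 for Fabp2, -0.55 to 0.23 for Apoa4 and -0.65 to 0.58 for Anpep in stomach. For the phase difference in duodenum against that in stomach they ranged from -0.021 to 1.29 for Lct, -0.86 to 0.38 for Sis, -0.61 to 0.16 for Fabp1, -0.074 to 1.33 for Apoa4, -0.96 to 0.32 for Anpep, -0.34 to 0.52 for Mttp and -0.27 to 0.93 for Npc1l1. For the phase difference in duodenum against that in liver they ranged from -0.047 to 1.26 for Lct, -0.84 to 0.40 for Sis, -0.49 to 0.28 for Fabp1, -0.55 to 0.85 for Apoa4, -0.42 to 0.36 for Vil1, -0.81 to 0.064 for Anpep, -0.48 to 0.37 for Mttp and -0.82 to 0.38 for Npc1l1. For the phase difference in duodenum against that in kidney they ranged from -0.043 to 1.27 for Lct, -0.89 to 0.36 for Sis, -0.36 to 0.66 for Fabp2, -0.85 to 0.56 for Apoa4, -0.37 to 0.41 for Vil1, -0.24 to 0.61 for Mttp and -0.93 to 0.27 for Npc1l1.

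A fit that took same-numbered replicates as a block called 0 genes between phases in duodenum, stomach, liver and kidney, and the tissue differences gave 3112, 5698 and 4956 genes against stomach, liver and kidney, with 9, 8 and 9 of the 9 genes. The block changed no call of the 9 genes. No set met the rule that all pairs correlate above 0.1: the deviations of libraries of the same number correlated by 0.063, -0.035 and 0.063 between the phases in duodenum and by 0.47, -0.052 and -0.52 in stomach. Between duodenum and kidney, the correlations of the same number, 0.013 to 0.077, were each above the highest of another number. The estimated depth of 13.4M to 17.8M reads in duodenum does not limit genes at these levels, whereas below 1 FPKM a listed 0 and a low level cannot be told apart.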
